A study of Chlamydomonas reinhardtii with 21 samples.

Results

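A set of 8 genes of nitrate and ammonium assimilation was followed through 21 transcriptomes of the green alga Chlamydomonas reinhardtii, out of 17741 gene models with a deposited value. They were chosen by name and not by a rule on their values, although earlier results of these data were known. The nitrate branch holds the transporters NRT2.1 (Cre09.g410850) and NRT2.2 (Cre09.g410800), the nitrate reductase NIT1 (Cre09.g410950), the nitrite reductase NII1 (Cre09.g410750) and the regulator NIT2 (Cre03.g177700). The ammonium branch holds the glutamine synthetases GLN1 (Cre02.g113200) and GLN2 (Cre12.g530650) and the glutamate synthase GSN1 (Cre13.g592200). All 8 were present in the table, and 5 of them (NII1, NIT2, GLN1, GLN2 and GSN1) passed the filter on low values, a mean above 0.1 FPKM, the fragments per kilobase of gene model scaled to library size. NRT2.1, NRT2.2 and NIT1 did not pass and are described without a test.

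The study asked how mutation of the histone deacetylase SRTA, which was found through mutants that express transgenes well, bears on the expression of nuclear genes. Batch 2 held UVM11-C9 and UVM11-C1, each 1 transformant of UVM11 that carries the SRTA wild-type allele beside the mutant allele srta-1, and the srta-1 mutant UVM11, with 3 cultures per strain. By the paper's account, both transformants carry that allele as a FLAG-tagged cDNA with a hygromycin resistance gene. They had been maintained on hygromycin medium. In comparisons with UVM11 these features cannot be told apart from the allele. Batch 1 held the srta-2 mutant UVM4, the srta-1 mutant UVM11 and Elow47 (SRTA wild type), with 4 cultures per strain. Elow47 is the parent of both mutants, descends from a cell wall-deficient cw15 strain with an arg7 lesion and carries the transgenes ARG7 and CRY1-1, so that all groups share this background. UVM4 and UVM11 came from UV mutagenesis and each is 1 clone with many further mutations. All cultures were untreated, grew in liquid Tris-acetate-phosphate medium, in which ammonium is the nitrogen source, under light and were harvested in mid-log phase for sequencing of poly(A) RNA. Only UVM11 was grown in both batches, so that for every other strain the batch and the strain cannot be told apart between batches. The srta alleles are point mutations, so the level of the SRTA transcript does not check the labels of mutants and parent. In batch 1 it was 3.10 to 3.89 FPKM in UVM4, 3.28 to 3.71 FPKM in UVM11 and 2.65 to 3.99 FPKM in Elow47. The complemented strains, which carry an added SRTA copy, were at 4.84 to 5.63 FPKM (UVM11-C1) and 3.32 to 3.66 FPKM (UVM11-C9). Both lay above UVM11 of batch 2, at 2.65 to 2.92 FPKM. The sum of all FPKM values ranged over libraries between 542464 and 617687, and each library correlated with the others of its group at a mean r between 0.992 and 0.998 on the log2 scale. The depth in reads is not given, but single-fragment steps in the values gave relative depths, which spanned 0.827 to 1.26.

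As background, the alga takes up nitrate through plasma membrane transporters, reduces it to nitrite in the cytosol with nitrate reductase, and reduces nitrite to ammonium in the chloroplast with nitrite reductase. Glutamine synthetase then joins ammonium to glutamate, and glutamate synthase returns glutamate by passing the amide group to 2-oxoglutarate. In this alga NIT2, a transcription factor of the RWP-RK family, is known to activate the nitrate genes when nitrate is present, and ammonium is known to keep them silent. The glutamine synthetases and glutamate synthase are needed with either nitrogen source, because ammonium enters amino acids through them.

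The 2 branches stood far apart in level. Mean FPKM over the 21 libraries was 291.5 for GLN2, 223.8 for GLN1 and 104.8 for GSN1. It was 4.70 for NIT2, 2.06 for NII1, 0.0335 for NRT2.1, 0.0118 for NIT1 and 0.0106 for NRT2.2. The ammonium genes were therefore among the most abundant transcripts of the cell, with 1.53% of all gene models above GLN2, 1.94% above GLN1 and 3.64% above GSN1. NIT2 stood near the middle, with 47.8% of gene models above it, and NII1 lower, with 66.6%. NRT2.1, NIT1 and NRT2.2 had 89.8%, 92.3% and 92.5% of gene models above them. Since FPKM is scaled per length, levels can be set beside each other between genes: the mean level of GLN2 was 142-fold that of NII1, and that of GLN1 was 109-fold that of NII1. A level is an average over a culture, so that fewer cells with a transcript and less transcript per cell cannot be told apart.

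**Figure D1:**
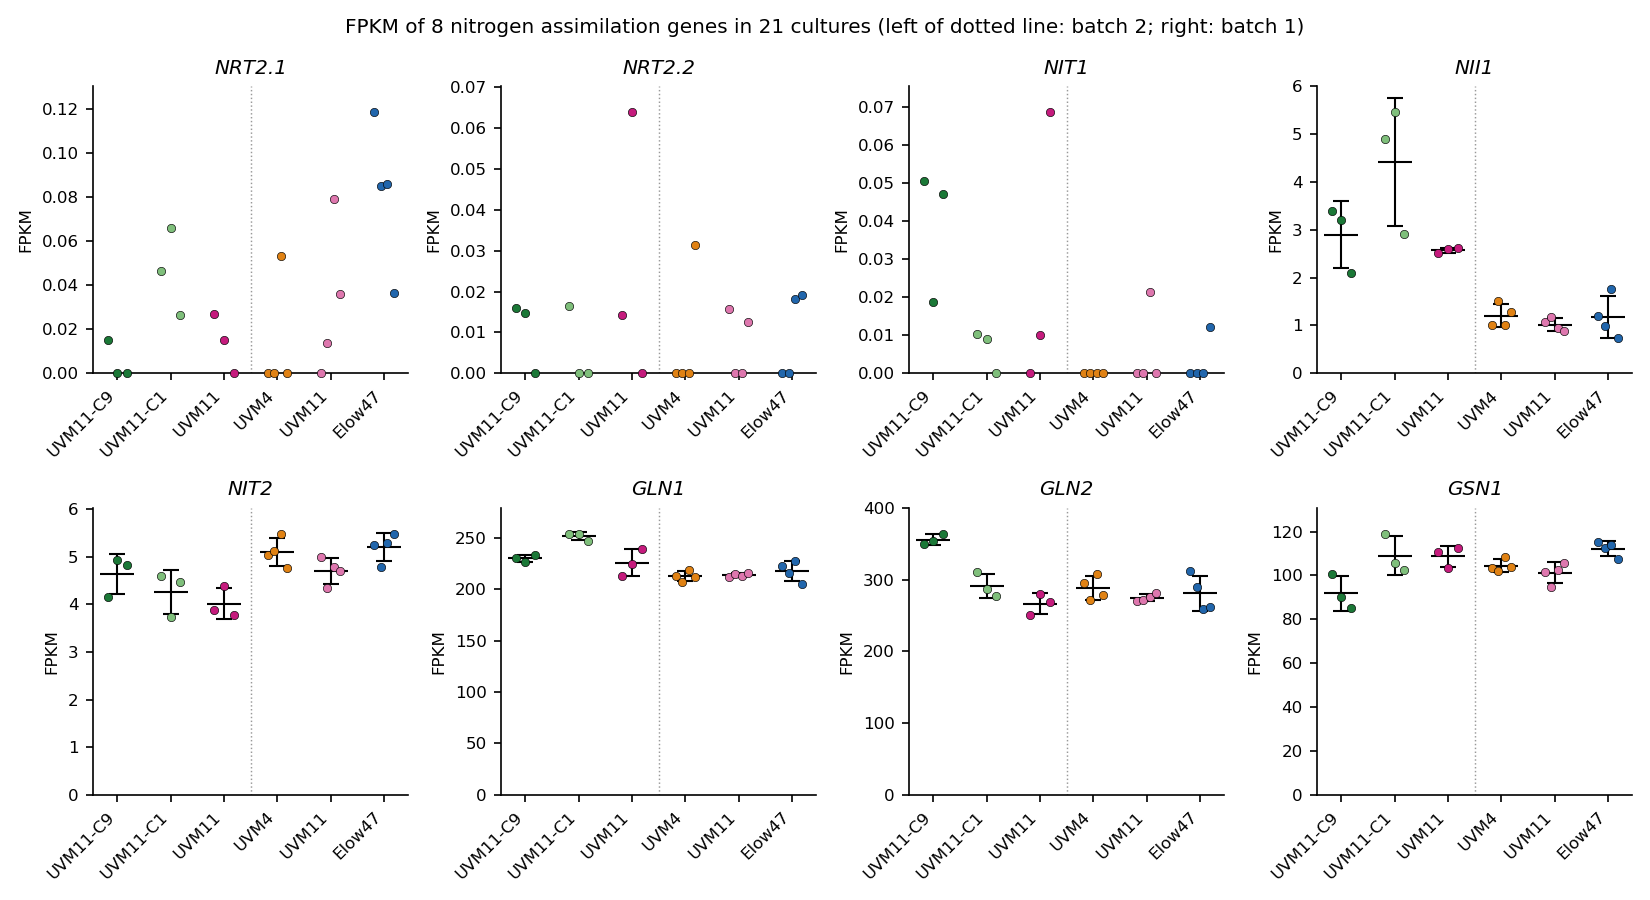
FPKM of the 8 genes in each culture, with 1 panel per gene, batch 2 strains left of the dotted line and batch 1 strains right of it. Points are cultures, and in the panels of NII1, NIT2, GLN1, GLN2 and GSN1 the wide bar is the group mean and the whiskers are 1 SD (n = 3 in batch 2, n = 4 in batch 1). Each vertical axis starts at 0. NII1 lies higher in all 9 cultures of batch 2 (2.09 to 5.45 FPKM) than in all 12 of batch 1 (0.729 to 1.77 FPKM), and GLN2 is highest in the 3 UVM11-C9 cultures (350.6 to 364.5 FPKM).

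NRT2.1 and NRT2.2, NIT1 and NII1 lie side by side on chromosome 9. In the RefSeq table for assembly version 5.5, NII1 spans 6978922 to 6984869, NRT2.2 6986662 to 6990589, NRT2.1 6991287 to 6995219 and NIT1 6998940 to 7006736, so that the 4 genes and 1 further gene model between NRT2.1 and NIT1 fill 27815 bp. NIT2 lies on chromosome 3 (4693035 to 4696776), GLN1 on chromosome 2 (6098426 to 6103996), GLN2 on chromosome 12 (5461696 to 5465279) and GSN1 on chromosome 13 (4180050 to 4191854).

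The high-affinity nitrate transporters were at the edge of detection in every strain. In batch 2 NRT2.1 measured 0.0150, 0 and 0 FPKM in the UVM11-C9 cultures, 0.0463, 0.0659 and 0.0265 FPKM in those of UVM11-C1 and 0.0268, 0.0151 and 0 FPKM in those of UVM11. Batch 1 gave 0, 0, 0.0531 and 0 FPKM in the UVM4 cultures, 0, 0.0138, 0.0791 and 0.0358 FPKM in those of UVM11 and 0.119, 0.0850, 0.0861 and 0.0363 FPKM in those of Elow47. All 4 Elow47 cultures and all 3 UVM11-C1 cultures thus had a value above 0, whereas 3 of 4 UVM4 cultures and 2 of 3 UVM11-C9 cultures were listed at 0. NRT2.2 was listed at 0 in 11 of 21 libraries and reached at most 0.0639 FPKM, in UVM11 culture 6 of batch 2. The pair are similar neighbouring copies, and how fragments that fit both were assigned is not given in the sources used here, so that the split between them is uncertain.

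Written as single-fragment steps, these values are a handful of fragments. All values of NRT2.1 together came to 46 fragments in 21 libraries, those of NRT2.2 to 14 and those of NIT1 to 24. By strain, NRT2.1 had 1 fragment in UVM11-C9 (exact Poisson 95% interval 0.0253 to 5.57), 10 in UVM11-C1 (4.80 to 18.4) and 3 in UVM11 of batch 2 (0.619 to 8.77). The strains of batch 1 had 3 in UVM4 (0.619 to 8.77), 9 in UVM11 (4.12 to 17.1) and 20 in Elow47 (12.2 to 30.9). Per depth, the NRT2.1 fragments of UVM11-C9 were 0.103 of those of UVM11-C1 (exact 95% interval 0.00236 to 0.721), and the cultures of these 2 strains did not overlap. Such separation of the 2 strains was seen in 53.0% of tested genes, a share over genes above the filter, which NRT2.1 did not pass. In batch 1 the NRT2.1 fragments of UVM4 were 0.142 of those of Elow47 (exact 95% interval 0.0270 to 0.478), and those of UVM11 were 0.376 of those of Elow47 (0.151 to 0.864). These intervals cover counting error only and compare pooled libraries, not strains: the highest UVM4 culture, at 0.0531 FPKM, and the highest UVM11 culture, at 0.0791 FPKM, lay above the lowest Elow47 culture, at 0.0363 FPKM. When the filter on low values was dropped, limma gave NRT2.1 a log2 fold change of -0.69 (adjusted p = 0.0246) in UVM4 over Elow47, where 7.56% of all genes fitted had an adjusted p below 0.05, and of -0.47 (adjusted p = 0.136) in UVM11 over Elow47, on the scale of log2(FPKM + 0.1), which understates changes at such levels. On that scale it was -0.47 (limma adjusted p = 0.0764) in UVM11-C9 over UVM11-C1.

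NIT1, whose product carries out the first reduction step, was listed at 0 in 12 of 21 libraries. In batch 2 it measured 0.0506, 0.0187 and 0.0472 FPKM in the UVM11-C9 cultures, 0.0104, 0.00891 and 0 FPKM in those of UVM11-C1 and 0, 0.0102 and 0.0688 FPKM in those of UVM11. The batch 1 value was listed at 0 in all 4 UVM4 cultures, while 1 of 4 UVM11 cultures measured 0.0214 FPKM and 1 of 4 Elow47 cultures 0.0123 FPKM. The UVM11-C9 cultures were all above the UVM11-C1 cultures, but the UVM11 cultures of batch 2 overlapped both. UVM11-C9 and UVM11-C1 did not overlap in 53.0% of tested genes, a share over genes above the filter, which NIT1 did not pass. In fragments, NIT1 had 12 in UVM11-C9 (exact Poisson 95% interval 6.20 to 20.96), 2 in UVM11-C1 (0.242 to 7.22) and 7 in UVM11 of batch 2 (2.81 to 14.4), against 0 in UVM4 (0 to 3.69), 2 in UVM11 (0.242 to 7.22) and 1 in Elow47 (0.0253 to 5.57) of batch 1. Taking 3 fragments over its 4 libraries as a one-sided limit, which is below the upper end of that interval, the 0 fragments in UVM4 allow a level of up to 0.00801 FPKM. Without the filter, limma gave NIT1 an adjusted p of 0.0498 in UVM11-C9 over UVM11-C1 (log2 fold change 0.38), where 44.2% of all genes fitted had one below 0.05, and adjusted p-values between 0.191 and 0.955 in the other 6 comparisons.

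NII1 was the 1 nitrate enzyme gene above the filter on low values, and it was the most variable of the 5 tested members. In batch 2 it measured 3.39, 3.20 and 2.09 FPKM in the UVM11-C9 cultures, 4.89, 5.45 and 2.90 FPKM in those of UVM11-C1 and 2.51, 2.59 and 2.61 FPKM in those of UVM11. Batch 1 gave 1.01, 1.51, 1.01 and 1.27 FPKM in the UVM4 cultures, 1.07, 1.18, 0.939 and 0.878 FPKM in those of UVM11 and 1.19, 0.995, 1.77 and 0.729 FPKM in those of Elow47. The 9 libraries of batch 2 all lay above the 12 of batch 1, and within batch 1 the 3 strains overlapped. The highest library was 7.49-fold the lowest, and 93.3% of the 15425 tested genes had a narrower range. In single-fragment steps, NII1 had 179 to 495 fragments per library in batch 2 and 48 to 123 in batch 1, so that its values rest on far more fragments than those of its neighbours.

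The strain grown in both batches shows the batch difference without a change of strain. NII1 averaged 2.57 ± 0.055 FPKM in UVM11 of batch 2 (SD, n = 3) and 1.02 ± 0.13 FPKM in UVM11 of batch 1 (SD, n = 4). The log2 fold change came to 1.26 (SE 0.23, 95% interval 0.78 to 1.75) with a limma adjusted p of 1.12e-04, and NII1 was called a differentially expressed gene (DEG), that is, an absolute log2 fold change above 1 with a Benjamini-Hochberg adjusted p below 0.01. It was the only DEG among the 5 tested members in the 7 comparisons made here. Of all tested genes, 5.23% were DEGs between the batches of UVM11, and 4.15% were DEGs that were higher in batch 2. The UVM11 cultures of the 2 batches did not overlap in 58.0% of tested genes. Complete separation of the 9 libraries of batch 2 above the 12 of batch 1 was also seen in 1225 genes, 7.94% of those tested. Its fold change dropped below the DEG threshold with a pseudocount of 1 (log2 fold change 0.83, adjusted p = 1.55e-04) and stayed between 1.20 and 1.33 when any 1 library was left out.

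NII1 in the complemented strains was at or above the level of UVM11 of the same batch. UVM11-C1 averaged 4.41 ± 1.34 FPKM (SD, n = 3) and all 3 of its cultures were above the 3 UVM11 cultures, as the groups did not overlap in 29.3% of tested genes, yet the difference missed both thresholds on the adjusted p (log2 fold change 0.71, SE 0.25, adjusted p = 0.0506). Without culture c, the lowest of UVM11-C1 at 2.90 FPKM, the log2 fold change was 0.98 and the adjusted p 0.00971. The adjusted p also fell to 0.0232 without Elow47 culture 3, 0.0329 without Elow47 culture 4, 0.0416 without UVM11-C9 culture 3 and just under 0.05 without UVM4 culture 2, libraries that enter through the spread shared by all groups. UVM11-C9 averaged 2.89 ± 0.70 FPKM (SD, n = 3) and its cultures lay on both sides of UVM11 (log2 fold change 0.14, SE 0.25, adjusted p = 0.681). The 95% interval of that difference, -0.38 to 0.65, leaves room for a change in either direction. Set against each other, UVM11-C9 was at a log2 fold change of -0.57 over UVM11-C1 (SE 0.25, adjusted p = 0.0614), and the adjusted p was 0.00901 without culture c of UVM11-C1, 0.0476 without culture 1 of UVM11-C9, 0.0316 without Elow47 culture 3 and 0.0407 without Elow47 culture 4.

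In the srta mutants no change of NII1 was detectable. The log2 fold change was 0.08 (95% interval -0.37 to 0.52, adjusted p = 0.884) in UVM4 over Elow47 and -0.13 (-0.58 to 0.32, adjusted p = 0.786) in UVM11 over Elow47. The sign turned without Elow47 culture 4 (-0.11) or UVM4 culture 2 (-0.03) in UVM4 over Elow47, and without Elow47 culture 3 (0.08) in UVM11 over Elow47, and the SD of 0.44 FPKM among the 4 Elow47 cultures, around a mean of 1.17 FPKM, was the widest of the 3 strains in batch 1.

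The genes on either side give the local context of the chromosome 9 group. Cre09.g410700, which ends 1254 bp before NII1, was expressed at 126 to 314 FPKM, and Cre09.g410600 beyond it at 111 to 141 FPKM. On the other side of NIT1, Cre09.g411050 was at 2.98 to 5.32 FPKM and Cre09.g411100 at 1225 to 1479 FPKM. The stretch of very low values thus ran from NRT2.2 to NIT1 and included the gene model Cre09.g410900 between NRT2.1 and NIT1, at 0.0510 to 0.357 FPKM. No function is annotated for these 5 models in the tables used here.

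**Figure D2:**
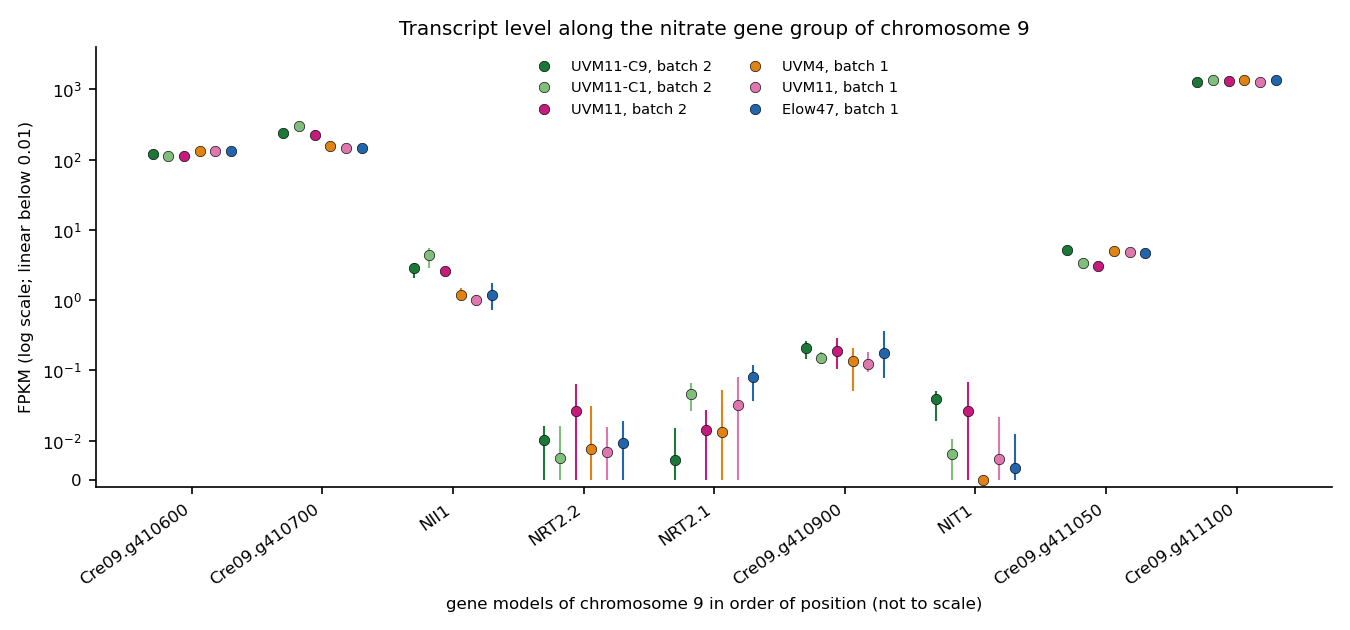
FPKM of the 4 nitrate genes and of the 5 gene models between and around them, in the order of their positions on chromosome 9. Points are group means and vertical lines run from the lowest to the highest culture, with 6 groups per gene, on a log axis that is linear below 0.01 FPKM. NRT2.2, NRT2.1 and NIT1 stay below 0.12 FPKM in every culture, between neighbours that reach 314 FPKM (Cre09.g410700) and 1479 FPKM (Cre09.g411100).

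Cre09.g410700 differed in 3 of the 7 comparisons at an adjusted p below 0.05, each time with the sign that NII1 had there. NII1 itself had an adjusted p below 0.05 only between the batches of UVM11. Of all tested genes, 56.0% had one between the batches, 18.4% in UVM11-C1 over UVM11 and 48.2% in UVM11-C9 over UVM11-C1. It averaged 222.9 FPKM in UVM11 of batch 2 and 144.5 FPKM in UVM11 of batch 1 (log2 fold change 0.61, SE 0.09, limma adjusted p = 1.03e-05). The UVM11-C1 cultures averaged 296.2 FPKM, against the 222.9 FPKM of UVM11 in batch 2 (0.42, SE 0.10, adjusted p = 0.00495), and was lower in UVM11-C9 than in UVM11-C1 (-0.30, SE 0.10, adjusted p = 0.0143). Cre09.g410600, the next gene model on that side, was lower in UVM11 of batch 2 than of batch 1 (log2 fold change -0.22, limma adjusted p = 4.41e-04), opposite to NII1. Cre09.g411050 also went the other way between batches, with 3.07 FPKM in UVM11 of batch 2 and 4.77 FPKM in UVM11 of batch 1 (log2 fold change -0.62, adjusted p = 4.83e-07), and was higher in UVM11-C9 than in UVM11 (0.71, adjusted p = 3.60e-07). None of these neighbours was a DEG in any of the 7 comparisons. The comparisons share libraries: UVM11 of batch 2 enters 3 of them, and UVM11-C1 enters 2.

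NIT2, known to switch on the nitrate genes, was transcribed in every library, at 3.73 to 5.49 FPKM. In batch 2 it measured 4.15, 4.93 and 4.84 FPKM in the UVM11-C9 cultures, 4.59, 3.73 and 4.47 FPKM in those of UVM11-C1 and 3.89, 4.38 and 3.77 FPKM in those of UVM11. Batch 1 gave 5.10 ± 0.29 FPKM in UVM4, 4.71 ± 0.27 FPKM in UVM11 and 5.21 ± 0.30 FPKM in Elow47 (SD, n = 4 each). The highest library was 1.47-fold the lowest, and 21.8% of tested genes had a narrower range. The order of group means had Elow47 highest, then UVM4, UVM11 of batch 1, UVM11-C9 (mean 4.64 FPKM), UVM11-C1 (4.26 FPKM) and UVM11 of batch 2 (4.01 FPKM), and every neighbouring pair in that order overlapped.

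The NIT2 transcript was thus present in libraries in which its known targets differed widely in level. NII1 exceeded 2 FPKM in 9 libraries in which NIT1 and both NRT2 genes stayed below 0.07 FPKM. The NIT2 protein and its activity were not measured, and whether the NIT2 transcript level bears on its targets was not tested. NIT2 was lower in UVM11 of batch 2 than in UVM11 of batch 1 (log2 fold change -0.23, SE 0.08, adjusted p = 0.0247), whereas NII1 was higher there. At an adjusted p below 0.05 with no fold threshold, 56.0% of all tested genes differed between these batches. The adjusted p of NIT2 passed 0.05 without UVM11 culture 1 (0.0695), culture 5 (0.0788) or culture 7 (0.109). In UVM11-C9 over UVM11 its log2 fold change was 0.20 (SE 0.09, adjusted p = 0.0643), with overlapping cultures. That adjusted p was 0.0317 without UVM11 culture 6, 0.0437 without UVM11-C1 culture b and 0.0212 without UVM11-C9 culture 1.

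GLN1, the cytosolic glutamine synthetase, was the steadiest of the tested members. In batch 2 it measured 230.7, 226.7 and 233.3 FPKM in the UVM11-C9 cultures, 254.1, 253.5 and 247.1 FPKM in those of UVM11-C1 and 212.9, 224.7 and 239.2 FPKM in those of UVM11. The batch 1 values spanned 207.5 to 219.0 FPKM in UVM4, 211.5 to 215.8 FPKM in UVM11 and 204.9 to 227.2 FPKM in Elow47. The 3 UVM11-C1 cultures were the highest of all 21, and the highest library was only 1.24-fold the lowest, a range narrower than that of all but 1.69% of tested genes. UVM11-C1 did not overlap UVM11 of its batch in 29.3% of tested genes, nor UVM11-C9 in 53.0%. The share of genes with UVM11-C1 apart from all other cultures was not counted. In UVM11-C1 GLN1 was higher than in UVM11 of batch 2 (log2 fold change 0.16, SE 0.05, adjusted p = 0.0186), the 1 tested member with an adjusted p below 0.05 there, where 18.4% of all tested genes reached it. This passed 0.05 without UVM11 culture 5 (adjusted p = 0.0907), UVM11 culture 6 (0.0546) or UVM11-C1 culture b (0.0652), with quantile normalization (0.125) and in a model of the 2 groups alone (0.198). Between the batches of UVM11 its log2 fold change was 0.08 (SE 0.04, adjusted p = 0.124), with an adjusted p of 0.0301 without UVM11 culture 5 and of 0.0435 with quantile normalization.

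GLN2, the chloroplast glutamine synthetase, was the most abundant of the 8 transcripts and was highest in UVM11-C9. In batch 2 it measured 350.6, 353.6 and 364.5 FPKM in the UVM11-C9 cultures, 310.5, 286.8 and 277.7 FPKM in those of UVM11-C1 and 251.0, 280.0 and 269.1 FPKM in those of UVM11. The batch 1 values spanned 271.8 to 308.3 FPKM in UVM4, 270.4 to 281.2 FPKM in UVM11 and 259.8 to 311.8 FPKM in Elow47. The 3 UVM11-C9 cultures lay above all 18 others, which overlapped from strain to strain. How many tested genes had UVM11-C9 apart from all other cultures was not counted. UVM11-C9 did not overlap UVM11 of its batch in 55.9% of tested genes, nor UVM11-C1 in 53.0%.

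In UVM11-C9 over UVM11 the log2 fold change of GLN2 was 0.42 (SE 0.06, limma adjusted p = 2.67e-05), a linear ratio of means of 1.34. GLN2 and GSN1 were the 2 of 5 tested members with an adjusted p below 0.05 in this comparison, in which 47.5% of all tested genes reached it, and the cultures of UVM11-C9 and UVM11 did not overlap in 55.9%. Neither was a DEG, as 3.59% of tested genes were. In UVM11-C1 over UVM11 the log2 fold change of GLN2 was 0.13 (SE 0.06, adjusted p = 0.173), with overlapping cultures. The 2 complemented strains differed directly, with a log2 fold change of 0.29 in UVM11-C9 over UVM11-C1 (SE 0.06, adjusted p = 0.00101). Under all alternatives and with any 1 library left out, the adjusted p stayed at or below 8.26e-04 against UVM11 and at or below 0.0123 against UVM11-C1.

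GSN1, the NADH-dependent glutamate synthase, was lowest in UVM11-C9. In batch 2 it measured 100.8, 89.9 and 85.2 FPKM in the UVM11-C9 cultures, 119.1, 105.7 and 102.3 FPKM in those of UVM11-C1 and 110.6, 103.3 and 112.4 FPKM in those of UVM11. The UVM11-C9 cultures were all below those of both other strains of the batch. Set against UVM11, UVM11-C9 had a log2 fold change of -0.24 (SE 0.06, adjusted p = 0.00322 by limma), and set against UVM11-C1 one of -0.25 (SE 0.06, adjusted p = 0.00312). In UVM11-C1 over UVM11 it was 0.00 (95% interval -0.13 to 0.13, adjusted p = 0.997). At an adjusted p below 0.05, UVM11-C9 and UVM11-C1 thus differed in GLN1, GLN2 and GSN1, 3 of 5 tested members, where 48.2% of all tested genes did, 53.0% had groups that did not overlap and 3.67% were DEGs.

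In batch 1 GSN1 was the tested member nearest to a difference between mutant and parent. It measured 103.4, 102.2, 108.6 and 103.8 FPKM in the UVM4 cultures, 101.8, 94.6, 102.6 and 105.8 FPKM in those of UVM11 and 115.5, 112.3, 113.8 and 107.4 FPKM in those of Elow47. All 4 UVM11 cultures lay below the lowest Elow47 culture, as in 14.3% of tested genes whose groups did not overlap, and 1 UVM4 culture lay above it. The log2 fold change was -0.15 (SE 0.05, adjusted p = 0.101) in UVM11 over Elow47 and -0.10 (SE 0.05, adjusted p = 0.282) in UVM4 over Elow47. Both comparisons use the same 4 Elow47 cultures.

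**Figure D3:**
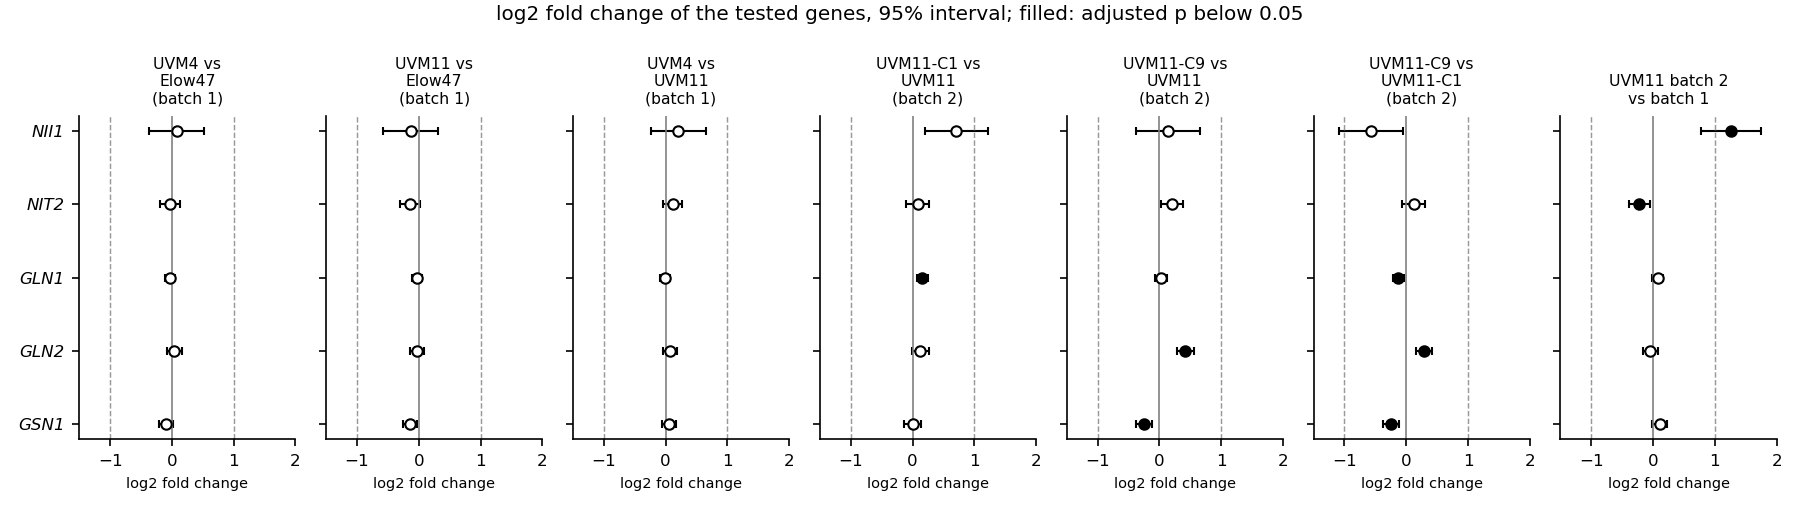
The log2 fold change of log2(FPKM + 0.1) for the 5 tested genes (rows) in the 7 comparisons (panels), the first-named group over the second. Bars are 95% intervals of the limma model, filled points have an adjusted p below 0.05, and dashed lines mark -1 and 1. NII1 lies beyond 1 only in UVM11 of batch 2 over batch 1 (1.26), and the filled points of GLN1, GLN2 and GSN1 lie between -0.25 and 0.42.

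Between the srta mutants and their parent no tested member was called. None of the 5 was a DEG or had an adjusted p below 0.05 in UVM4 over Elow47, in UVM11 over Elow47 or in UVM4 over UVM11, where 1.12%, 1.40% and 0.856% of tested genes were DEGs and 8.39%, 7.86% and 9.55% had an adjusted p below 0.05. By an unadjusted limma p below 0.05, the count was 0 of 5 members in UVM4 over Elow47, where 22.0% of all tested genes had one, 1 of 5 in UVM11 over Elow47 (GSN1), where 21.7% did, and 0 of 5 in UVM4 over UVM11, where 23.2% did. The median log2 fold change of the 5 members was -0.03 in UVM4 over Elow47 and -0.13 in UVM11 over Elow47, beside medians of 0.00 and -0.01 over all tested genes. All 5 were negative in UVM11 over Elow47, although the signs of GLN1 and GLN2 turned with quantile normalization, that of GLN2 without Elow47 culture 1 and that of NII1 without Elow47 culture 3. The median absolute log2 fold change of the members was 0.13 there and 0.04 in UVM4 over Elow47, beside 0.09 over all tested genes in both. The intervals limit how large a change could have gone unseen: for GLN1, GLN2, GSN1 and NIT2 all lay within -0.30 to 0.27 in these 3 comparisons, whereas those of NII1 spanned -0.58 to 0.65.

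In the complemented strains the log2 fold changes of the members had a median of 0.13 in UVM11-C1 over UVM11 and of 0.14 in UVM11-C9 over UVM11, beside medians of 0.00 and -0.01 over all tested genes. None was a DEG in UVM11-C1 over UVM11, where 1.24% of tested genes were. The members did not move as 1 group: GLN2 was higher and GSN1 lower in UVM11-C9, while GLN1 was higher in UVM11-C1. The differences in UVM11-C9 and UVM11-C1 share the 3 UVM11 cultures of batch 2.

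Ratios within a culture restate these differences without reference to library size. They are built from the same values and add no separate evidence. GLN2 over GLN1 was 1.55 ± 0.024 in UVM11-C9, 1.16 ± 0.055 in UVM11-C1 and 1.18 ± 0.061 in UVM11 of batch 2 (SD, n = 3 each). It was 1.35 ± 0.049 in UVM4, 1.29 ± 0.016 in UVM11 of batch 1 and 1.29 ± 0.11 in Elow47 (SD, n = 4 each). The UVM11-C9 cultures, at 1.52 to 1.56, lay above every other culture, of which the highest was 1.41, in UVM4. Among single genes, UVM11-C9 did not overlap UVM11 of its batch in 55.9% of those tested, nor UVM11-C1 in 53.0%. How many pairs of genes give ratios set apart in this way was not counted. UVM11-C1 and UVM11 of batch 2 overlapped, at 1.12 to 1.22 and 1.13 to 1.25.

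GLN2 over GSN1 is the ratio of the chloroplast glutamine synthetase transcript to that of the NADH-dependent glutamate synthase only. It was 3.90 ± 0.40 in UVM11-C9, 2.68 ± 0.062 in UVM11-C1 and 2.46 ± 0.23 in UVM11 of batch 2 (SD, n = 3 each). The lowest UVM11-C9 culture, at 3.48, was above the highest culture of any other group, at 2.88 in UVM11 of batch 1. For this ratio, too, the share of gene pairs with such a gap was not counted. GLN1 over GSN1 varied less, with its highest mean in UVM11-C9 (2.52 ± 0.23, SD, n = 3) and its lowest in Elow47 (1.94 ± 0.040, SD, n = 4).

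**Figure D4:**
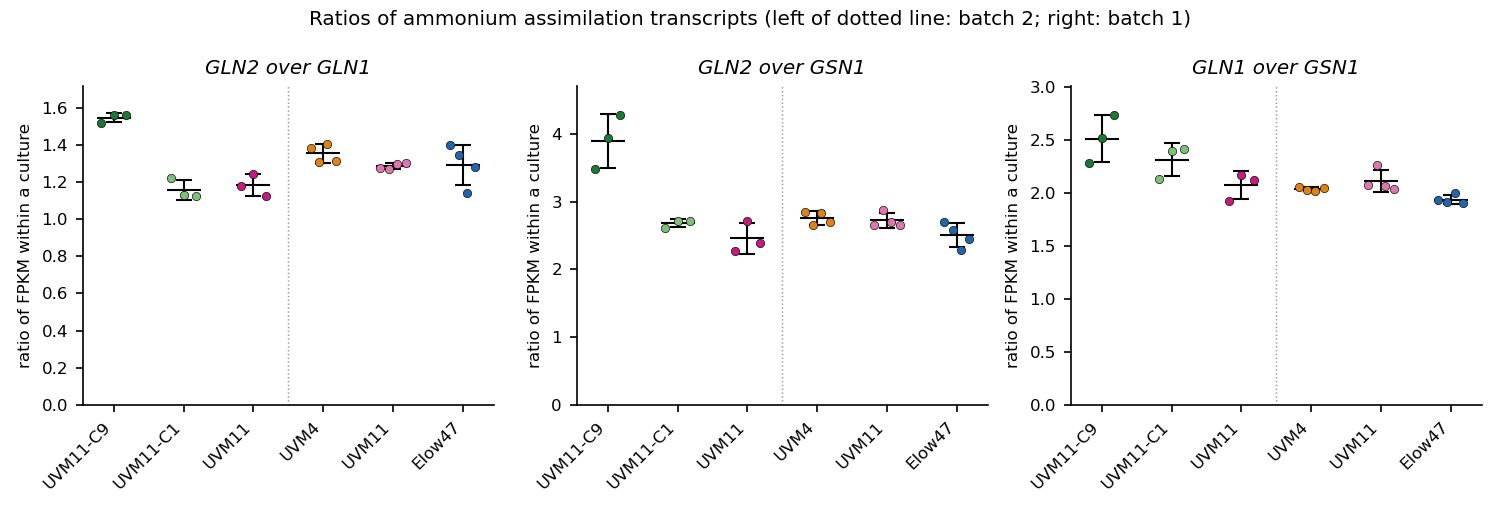
Ratios of FPKM between the ammonium assimilation genes within each culture, with batch 2 strains left of the dotted line and batch 1 strains right of it. Points are cultures, wide bars are group means and whiskers are 1 SD (n = 3 in batch 2, n = 4 in batch 1), and the axes start at 0. GLN2 over GLN1 lies at 1.52 to 1.56 in UVM11-C9 and at or below 1.41 elsewhere, and GLN2 over GSN1 at 3.48 to 4.28 in UVM11-C9 and at or below 2.88 elsewhere. How many other gene pairs set UVM11-C9 apart in this way was not counted.

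Across the 21 libraries, with each batch centred on its own mean, the members varied together only in part. As a description, the Pearson r of log2 values was 0.60 between NII1 and GLN1, 0.52 between NIT2 and GLN2, and -0.45 between GLN2 and GSN1. NII1 and its regulator NIT2 had an r of -0.13, and the 2 glutamine synthetases an r of 0.12. The libraries of a strain are not independent points here, so that a strain which stands apart sets much of such a value.

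The genes whose pattern was most like that of a member were found by the same measure over all 15425 tested genes. For GLN2 they were Cre12.g511150 (r = 0.94), Cre12.g486100 (0.93) and Cre12.g500950 (0.93), and for GSN1 Cre16.g682369 (0.91), Cre07.g327900 (0.86) and Cre12.g485150 (0.85). For NII1 they were Cre09.g399650 (0.84), Cre01.g018900 (0.83) and Cre16.g661638 (0.82), and for GLN1 Cre15.g637501 (0.85), Cre13.g570851 (0.83) and Cre09.g393900 (0.82). For NIT2 the likeness was weakest, with Cre16.g679300 (0.76), Cre01.g004000 (0.75) and Cre08.g373878 (0.72). No member was among the 3 most like genes of another. The 3 named for GLN2 lie, like it, on chromosome 12, as does Cre12.g485150, which was named for GSN1. The share of tested genes on that chromosome was not counted.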

How the data were processed

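The deposited table holds 1 FPKM value per gene model and library. The authors aligned reads with STAR (version 2.4.0j) to version 5 of the genome and computed FPKM for the version 5.5 models with cuffdiff (version 2.2.1). The counts they used for their own tests were not used here. The library kit is named differently in the sample labels and in the study's methods, so strandedness is not relied on.

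Values were taken as log2(FPKM + 0.1). Genes with a mean above 0.1 FPKM (15425, with 2316 left out) entered 1 limma model (version 3.58.1, R version 4.3.3) of the 6 groups of strain and batch, with a variance trend, 15 residual degrees of freedom and Benjamini-Hochberg adjustment over all tested genes in each of 7 comparisons. The DEG thresholds were 1 for the absolute log2 fold change and 0.01 for the adjusted p. Replicates are separate cultures of 1 strain. Columns of UVM11-C1 are told from UVM11 columns by letter case only and were tied to the strain, not to single samples. Its cultures are called a, b and c in the order of the numbers 1 to 3 in the column names. On simulated data with 200 genes changed by 2 or 3 log2 units among 15425 genes, the procedure recovered 99.0% in UVM4 over Elow47 and 97.0% in UVM11-C9 over UVM11, with 1 false call each. These planted changes were well beyond the threshold of 1. The rates therefore give no measure of power for smaller changes, such as all those of the members.

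Fragments were recovered after the values were seen, from the smallest common steps. Over 665 genes with low values, 98.7% of 4564 values lay within 0.1 of a whole step. The numbers are the fewest fragments that give the values, for NRT2.1, NRT2.2, NIT1, NII1 and NIT2 only. Exact intervals (95%) cover counting error only.

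The members and lists were chosen with earlier results of these data known. The rule for named genes was the 8 members, the gene models within 2 of NII1 or NIT1, the 3 genes most like each tested member by Pearson r, and further genes of the pathway by reference symbol. The reference table gave positions for 17738 genes and 0 symbols, so that last list is empty, and no sequences are shown. Alternatives were a pseudocount of 0.01 or 1, a filter at 1 FPKM or none, quantile normalization, models of 2 groups, the replicate number as a block, an adjusted p below 0.05 with no fold threshold, and each library left out in turn.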

Additional observations from a re-analysis of the deposited data

Results flagged for a closer look

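In groups of 4 cultures, 4 of the 23 combinations of gene and group checked had 1 culture far from the other 3. In all 4 the other cultures were listed at 0, so that any value above 0, even that of 1 fragment, stands apart by construction, and the rate of 1 in 20 that chance gives for measured values does not apply. NIT1 measured 0.0214 FPKM in 1 UVM11 culture and 0.0123 FPKM in 1 Elow47 culture of batch 1, with 0 in the other 3 of each. NRT2.1 measured 0.0531 FPKM and NRT2.2 0.0313 FPKM in 1 UVM4 culture each, again with 0 in the other 3.

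The difference from UVM11 was not the same in the 2 complemented strains for 3 genes, by a limma test of UVM11-C9 over UVM11-C1, which share the UVM11 cultures. The log2 difference between their effects was 0.29 for GLN2 (adjusted p = 0.00101), -0.25 for GSN1 (adjusted p = 0.00312) and -0.13 for GLN1 (adjusted p = 0.0244). In each case the 3 cultures of UVM11-C9 lay on 1 side of the 3 of UVM11-C1. Of all tested genes, 48.2% had an adjusted p below 0.05 in this comparison and 53.0% had groups that did not overlap, so that 3 of 5 members is near the background. The value of GLN1 passed 0.05 without culture a (adjusted p = 0.0570) or b (0.0652) of UVM11-C1 or culture 2 of UVM11-C9 (0.0776), with quantile normalization (0.0930) and in a model of the 2 groups alone (0.0893).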

How the results depend on the processing

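The count of DEGs among the members was 0 in 6 comparisons and 1 in UVM11 of batch 2 over batch 1 under every alternative but 2. A pseudocount of 1 left 0 DEGs between the batches. With an adjusted p below 0.05 and no fold threshold, 1 member passed in UVM11-C1 over UVM11, 2 in UVM11-C9 over UVM11, 3 in UVM11-C9 over UVM11-C1 and 2 between the batches. Leaving out 1 library kept the count at 1 between the batches and at 0 elsewhere. Of 1035 fold changes under alternatives, 14 turned in sign, in 9 of 35 results, whose reported values were at most 0.13 in size, with adjusted p-values of 0.601 or more. With quantile normalization these were GLN1 in UVM4 over Elow47 (0.0058), GLN1 (0.0533) and GLN2 (0.0617) in UVM11 over Elow47, and GSN1 in UVM11-C1 over UVM11 (-0.0316). With 1 library left out, NII1 ranged from -0.11 to 0.28 and NIT2 from -0.0692 to 0.0017 in UVM4 over Elow47. NII1 ranged from -0.32 to 0.0759 and GLN2 from -0.0635 to 0.0243 in UVM11 over Elow47. GLN1 ranged from -0.0176 to 0.0084 in UVM4 over UVM11 and from -0.0099 to 0.0739 in UVM11-C9 over UVM11, and GSN1 from -0.0647 to 0.045 in UVM11-C1 over UVM11. The cause was not tested. Quantile normalization shifted the median of all genes to at most -0.06. The NII1 difference in UVM11-C1 over UVM11 fell under an adjusted p of 0.05 with a pseudocount of 1 (0.0214), a filter at 1 FPKM (0.0479) or quantile normalization (0.0319). The replicate numbers of batch 1 do not pair the cultures: the deviations of same-numbered cultures correlated at -0.14 to 0.15, with 1 of 12 pairs over 0.1. With the replicate number as a block, 0 members were DEGs in the 3 comparisons of batch 1, and the adjusted p of GSN1 in UVM11 over Elow47 was 0.0496. In batch 2 the columns of UVM11-C9 and UVM11-C1 share the numbers 1 to 3, and their same-numbered cultures correlated at 0.03 to 0.09, so that the numbers do not pair them either. The replicate block there, a fit of these 2 strains alone, left 0 members as DEGs and gave adjusted p-values of 0.00475 for NII1, 0.105 for GLN1, 0.0123 for GLN2 and 0.01003 for GSN1. UVM11 of batch 2 shares no number with them. Depth limits NRT2.1, NRT2.2 and NIT1, with 46, 14 and 24 fragments in all.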
